A study of Mus musculus with 6 samples.

Results

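The sequences described here are designed DNA probes of 60 bases that start at their first base with a 16-base composite site, 1 with the site intact and 210 with its CRE changed. They were taken from 6889 custom sequences on a protein binding microarray, on which a tagged protein bound to double-stranded DNA is read as fluorescence. The members were chosen by sequence alone: of the changed probes 21 carry 1 substitution and the others 2, all at positions 10 to 16 counted from 1 at the site's 5′ end. Because the site begins at base 1 in forward orientation, its ETS part has no base before it. The same site was also placed at the outer end in reverse, at bases 11 to 26 and at bases 21 to 36, in both orientations, which makes 6 placements.

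GABPα belongs to the ETS family, whose members dock a winged helix onto DNA around a GGAA core. CREB1 is a bZIP factor: a pair of its long helices grips the cAMP response element (CRE), and each helix reads 1 arm of that palindrome. In a composite ETS-CRE site the motifs abut, so both proteins can be close on the same stretch of DNA. The question of the series was how the proteins bind changed copies of their sites and whether they bind the composite site together.

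The proteins were the binding domains alone, of mouse origin and with GST at the N-terminus. Per the labels' protocols, an in vitro translation of 250 µl received 570 ng of plasmid and ran for 2 h at 37 °C, after which an array was covered with 230 µl of it. GABPα alone and CREB1 alone are GST-tagged proteins, and in GABPα with CREB1 a further 66 ng of plasmid for CREB1 without a tag was translated beside the tagged GABPα. Fluorescence there reports GABPα in the presence of CREB1, not CREB1. The labels enter bZIP as the binding domain of all samples, GABPα included. Each group had 2 arrays, and no label says whether these came from separate translations, so p-values measure only the spread between arrays, which may be technical. The first arrays of GABPα alone and GABPα with CREB1 shared a slide, as did the second arrays, whereas the CREB1 arrays were on other slides scanned on another day, so protein and slide cannot be told apart there.

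The unmutated probe is shown first, with the 16-base site in capitals. The GGAA core lies at positions 4 to 7 and the CRE, TGACGTCA, at positions 9 to 16. The last 24 bases are common to all placements.

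unmutated: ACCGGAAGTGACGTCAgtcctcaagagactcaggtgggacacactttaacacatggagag

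The next probes carry the comparison of the CRE's arms. G10C and C15G, and likewise G10A and C15T, are the same change at mirror positions of the CRE. C15T+A16T had the highest mean signal of GABPα with CREB1. Capitals mark the changed bases.

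G10C: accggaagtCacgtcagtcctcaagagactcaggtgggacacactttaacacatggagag
C15G: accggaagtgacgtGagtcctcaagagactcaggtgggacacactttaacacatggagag
G10A: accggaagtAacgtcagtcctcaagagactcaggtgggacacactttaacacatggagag
C15T: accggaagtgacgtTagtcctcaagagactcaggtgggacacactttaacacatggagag
C15T+A16T: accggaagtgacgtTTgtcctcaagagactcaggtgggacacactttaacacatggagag

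In the last set the change that damaged the CRE also wrote a further ETS-like core. Capitals mark each GGAA or TTCC, its reverse complement, and in G13A+A16C also ATCC.

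G13T+A16C: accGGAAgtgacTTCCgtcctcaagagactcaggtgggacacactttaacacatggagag
T14G+C15A: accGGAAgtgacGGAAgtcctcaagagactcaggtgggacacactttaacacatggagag
G10T+A11C: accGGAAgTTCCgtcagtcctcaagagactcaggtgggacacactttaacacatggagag
G13A+A16C: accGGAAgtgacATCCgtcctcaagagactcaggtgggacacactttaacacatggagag

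Signals are on a log2 scale of scanner-processed intensity, with the 75th percentile over sequences that were above background on all arrays set to 0, so that 0 is a bright probe. Each changed sequence had 24 spots and the unmutated one 48, under 2 probe names. Above background means here that the scanner's test passed more than a share of 0.5 of a sequence's spots on both arrays of the group. Over the members, replicate arrays correlated at r = 0.996 (CREB1 alone), r = 0.989 (GABPα with CREB1) and r = 0.877 (GABPα alone), across probes that share arrays and most of their bases. No spot of a member was saturated.

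GABPα alone gave little signal on the unmutated probe, and adding CREB1 raised it. The signal was -4.41 and -4.72 on the arrays of GABPα alone, -0.64 and -0.74 with CREB1, and 1.13 and 0.75 for CREB1 alone. The groups did not overlap, and GABPα alone was not well above background on either array. On those arrays 68.9% and 100% of the probe's spots held a surrogate, which the scanner software writes where the background-subtracted intensity is not significant. The increase on adding CREB1 was 3.88 (SE 0.136) with an adjusted p of 0.00417 (limma), and 3.78 and 3.97 within the slides. Since the lower side is a background value, the increase is at least 3.86-fold on this processed scale. After normexp background correction it was 2.16 (adjusted p = 0.0124, limma). The spots under the 2 probe names gave -4.57, -4.70, -0.54 and -0.76 for one and -4.28, -4.73, -0.72 and -0.72 for the other on the 4 arrays with GABPα.

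The call for the unmutated probe depends on the arrays and on the spread used. It was lost without either array of GABPα alone (adjusted p = 0.0562 and 0.0649, limma) and with each sequence's own spread (adjusted p = 0.0631). In the authors' deposited table, an intensity not scaled between arrays, the same probe read 973 and 930 for GABPα alone and 3262 and 4195 with CREB1, which is 3.35-fold and 4.51-fold within the slides, with an adjusted p of 0.543 (limma).

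That table also shows that GABPα alone was not at the level of probes without a core. The outer forward copies with both changes inside the GGAA core, 54 probes used as the reference, averaged 229 and 216 in the authors' deposited table on the arrays of GABPα alone, with maxima of 285 and 345. The unmutated probe lay 4.25-fold and 4.31-fold above that mean, and every member lay above the highest reference probe on each of the 4 arrays with tagged GABPα. With CREB1 the unmutated probe lay 17.9-fold and 42.4-fold above the reference. Tested on processed signal, 5 of the 210 changed members were above the reference with GABPα alone, where 29.3% of all sequences tested were, and 81 with CREB1, where 38.4% were. The unmutated probe was called with CREB1 and not with GABPα alone. In the authors' deposited table all 210 were above it in both groups, where 46.9% and 58.6% of all sequences were higher and 0% and 13.3% lower. After normexp background correction all 210 were above it too.

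Of the members, counting the unmutated probe, 53 rose and 0 fell on adding CREB1 (limma, adjusted over 10812 sequences), where 6.73% of all sequences rose and 3.58% fell. With the slide as a block 35 rose. With the percentile taken over all spots 46 rose and 125 fell, so a direction is given here only for probes that cleared background with CREB1. Of the 53, 43 did so, with increases on the processed scale of at least 1.14-fold to at least 4.27-fold. These bounds hold on that scale only: in the authors' deposited table the same 43 were 1.41-fold to 3.43-fold brighter with CREB1 on the first slide and 1.56-fold to 5.41-fold on the second, and 24 of them were under their bound on a slide. G13T+A16C also cleared background with CREB1 but was not called, and is described below. The 43 called ones were higher with CREB1 under each of the scalings tried and in the deposited table, though how many passed the test ranged from 0 there to 43. They had been picked by their call on these same arrays, so this shows only that rescaling kept their sign. In the authors' deposited table none was called (41 at an unadjusted p under 0.05), and 66 and 64 members were brighter with CREB1 than without on the first and second slide. None was called without either array of GABPα alone, or with each sequence's own spread.

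Which members cleared background with CREB1 followed the place of the change. GABPα with CREB1 was above background on 44 members, GABPα alone on 1 and CREB1 alone on 122, where 30.2%, 23.9% and 86.2% of all custom sequences were. Of the single changes in the far arm, positions 14 to 16, 8 of 9 were above background with CREB1, and of doubles within that arm 26 of 27. The exceptions, T14G and T14G+A16C, were above it on 1 of the arrays. Of single changes at the central CpG, positions 12 and 13, 3 of 6 were above background. Of single changes in the first arm, positions 10 and 11, 2 of 6 were. Doubles with a change in the first arm almost never were: 1 of 9 within that arm, 0 of 36 with a central change and 1 of 54 with a far change. Doubles of a central and a far change gave 2 of 54, and those of both central bases 0 of 9. CREB1 alone was above background on 36 of the 54 doubles that joined a first-arm and a far change.

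The far end of the CRE could be changed with little loss of GABPα signal beside CREB1. With CREB1, 199 of 210 changed members were lower than the unmutated probe and 0 higher, where 99% of all substitutions in all placements were lower. The 11 that were not called lower were A16G, A16T and all 9 doubles of positions 15 and 16. With each sequence's own spread 9 were not called lower, namely A16G, A16T, C15T and 6 doubles of positions 15 and 16, so which of these probes pass depends on the spread used. C15T+A16T read -0.52 and -0.57 with CREB1, against -0.64 and -0.74 for the unmutated probe. C15A+A16C was 0.11 above it (SE 0.106). A p that misses the threshold does not show that these probes bind alike. In the deposited table C15T+A16T reached 116% and 121% of the unmutated probe with CREB1, and 67.4% and 75% with CREB1 alone. It was brighter there with GABPα alone too, 5.11-fold and 7.04-fold above the core-broken mean, against 4.25-fold and 4.31-fold for the unmutated probe. Less that mean, adding CREB1 raised C15T+A16T 3.83-fold and 3.82-fold within the slides, and the unmutated probe 4.14-fold and 5.73-fold.

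CREB1 alone was lower on 208 of the 210 changed members, and higher on 0, where 78.7% and 0.207% of all substitutions were. The 2 exceptions were A16G and C15A+A16G. The median member kept 8.18% of the unmutated signal with CREB1 alone in the deposited table and 19.7% with GABPα beside CREB1. For GABPα alone the median was 101%.

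The loss caused by a substitution was compared between the arrays with and those without CREB1. It was larger with CREB1 for 199 of 210 changed members and smaller for 0, where 86.1% and 8.22% of all substitutions were. On the processed scale the unmutated probe was at background without CREB1, as were all changed members but 1. A loss could hardly appear there, so these differences largely repeat the loss with CREB1. Each of these differences subtracts the same unmutated probe, whose deviation all rows share, so the pooled spread is too even and its p-values too small. Over the members the deviations on the arrays with CREB1 averaged -0.13 and 0.13 with an SD of 0.10. With each sequence's own spread, 187 of 210 were called. None was called in the authors' deposited table (177 at an unadjusted p under 0.05, limma). The p-values of single members given below for effects against the unmutated probe use each sequence's own spread. That spread is pooled over the arrays of all groups, so a probe has the same SE in each group. It includes the arrays of GABPα alone, where 77.5% and 91.2% of the members' spots held a surrogate.

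Mirror changes of the CRE showed the arms apart. These pairs were compared after their values were seen, and are given as a description. G10C, in the arm next to the ETS part, read -4.89 and -4.68 with CREB1, and C15G, its mirror, read -0.83 and -1.02. With CREB1 alone the same probes were much closer, at -0.16 and -0.42 for G10C and 0.48 and 0.15 for C15G. G10C was 0.63 and 0.57 below C15G on the arrays of CREB1 alone. On those of GABPα with CREB1, G10C was below background, so its distance of 4.06 and 3.66 from C15G is not a measured size. In the deposited table G10C held 22.0% and 18.3% of the signal of C15G with CREB1, and 62.8% and 68.2% with CREB1 alone. With GABPα alone G10C was the dimmer there too, at 745 and 795 against 976.5 and 1044.5 for C15G.

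Other mirror pairs of the arms ran the same way with CREB1, to different extents. G10A and A11T were below background with CREB1 and their mirrors C15T and T14A above it, so the sizes are given from the authors' deposited table. There G10A held 32.4% and 23.9% of the signal of C15T with CREB1, and 63.9% and 57.4% with CREB1 alone. A11T held 53.8% and 45.2% of the signal of T14A with CREB1, and 91.7% and 112% with CREB1 alone. With GABPα alone G10A read 814 and 821 there, against 1140.5 and 1144.5 for C15T. A11T read 750 and 898, against 932 and 854 for T14A. With CREB1, G10T, whose octamer is TTACGTCA, was 0.89 and 1.04 below C15A, and stayed above background at -1.99 and -2.11. At the centre the pairs ran both ways. C12A was 0.44 and 0.19 below G13T with CREB1, both probes being below background, and held 91.3% and 94.6% of its signal in the deposited table. C12G, below background, was 0.90 and 0.69 below G13C, and held 73.8% and 75.2% of its signal there. C12T was 0.29 and 0.20 above G13A, but held 107% and 90.8% of its signal in the deposited table, where the sign turns on the second array.

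G10C against the unmutated probe fell by 4.10 with CREB1 (SE 0.116, adjusted p = 8.48e-05, limma without moderation), a loss of at least 4.43-fold on the processed scale since its own value is a background one. With CREB1 alone it fell by 1.23 (SE 0.116, adjusted p = 0.00331), and it was measured above background there. C15G fell by 0.24 with CREB1 (SE 0.0616, adjusted p = 0.0314) and by 0.63 with CREB1 alone (SE 0.0616, adjusted p = 0.00359).

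Members with positions 10 and 11 intact followed the CREB1 signal closely, and those with either changed did not. Across 106 members with both bases intact, the signal with CREB1 and that of CREB1 alone correlated at r = 0.956 (rho = 0.946), and across 105 with one or both changed at r = 0.62 (rho = 0.397). These are descriptions over probes that share arrays, filler and most site bases, and many of the second set lie at background with CREB1. In the deposited table the values were 0.959 and 0.648. Where CREB1 alone read between -1 and 0, 16 of 16 intact members were above background with CREB1 and 3 of 10 changed ones. Between -2 and -1 the counts were 6 of 10 and 0 of 16. This split and these ranges were chosen after the values were seen.

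The lone member on which GABPα alone was above background was G13T+A16C. It read -1.08 and -1.36 with GABPα alone, -1.62 and -1.60 with CREB1, and -4.09 and -3.60 with CREB1 alone. Against the unmutated probe it was higher with GABPα alone (adjusted p = 0.00156, limma without moderation). The difference of 3.35 (SE 0.254) is not a measured size, since the unmutated probe was at background there, and in the deposited table it was at 304% and 479% of that probe. It was 0.92 lower with CREB1 (SE 0.254, adjusted p = 0.0377, limma without moderation). Adding CREB1 changed it by -0.54 and -0.24 within the slides, which did not pass the test (adjusted p = 0.102, limma). In the deposited table it read 2960 and 4453 with GABPα alone, 12.9-fold and 20.6-fold above the core-broken mean, and 2323 and 2897 with CREB1.

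A second GGAA or TTCC is held by 3 members, and by 0.47% of 6814 custom probes of this length searched on both strands. T14G+C15A read -3.71 and -4.32 with GABPα alone and -1.72 and -1.83 with CREB1. G10T+A11C, whose TTCC begins within a base of the first core, read -4.59 and -4.67 with GABPα alone and -4.82 and -4.83 with CREB1, both at background. The 9-base word ACGGAAGTC, searched on both strands after the values were seen, is in G13T+A16C and T14G+C15A and in 0.117% of those probes. G13A+A16C, the 1 member with GGAT or its complement ATCC (4.21% of the probes), read -3.02 and -3.79 with GABPα alone and -3.23 and -3.12 with CREB1. A match is a description of the letters and not of a bound site.

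With GABPα alone 8 of 210 changed members were higher than the unmutated probe and 0 lower, where 0.443% and 68.5% of all substitutions were. That direction depends on the processing: quantile normalization called 38 higher and 64 lower, and normexp 14 higher and 27 lower. Of the 8, G13T+A16C, T14G+C15A and G13A+A16C hold a further GGAA, TTCC or ATCC. A11G+A16T, C15T+A16T, G13C+A16T, G13T+A16T and G13T+C15A hold none. With each sequence's own spread 5 were called higher, of which C15T+A16C and C15T+A16T hold none, and C15G+A16C was called lower. G13A+A16C was 1.16 higher (SE 0.22, adjusted p = 0.02, limma without moderation) and T14G+C15A 0.55 higher (SE 0.101, adjusted p = 0.0187). Both remained below background on these arrays, so the sizes are not measured folds.

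CREB1 alone gave a readout in which the joint effect of changes could be followed, since 100 doubles were above background together with their singles. A departure from additivity is the double's log2 signal minus both singles plus the unmutated one. It was called for 31 doubles above 0 and 118 below 0, where 9.23% and 17.7% of all doubles were. Of the 100 measured ones, 22 were above and 59 below. With each sequence's own spread the calls over all doubles came to 19 above and 77 below. Under quantile normalization 76 were above and 2 below, so the prevailing sign turned.

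In the scaling used here the sign differed with the arms at this placement, a pattern that quantile normalization keeps only in part. The calls in the other placements were not split by arm, and over all doubles the prevailing sign differed between placements. It was 143 above and 0 below at outer reverse, so no first-and-far double was called below additivity there. Inner forward gave 105 above and 29 below. The remaining placements gave 22 to 37 above and 110 to 141 below, against 31 and 118 here. Among measured doubles of a first-arm and a far change 35 of 36 were below additivity and 0 above. Doubles within the far arm gave 16 of 27 above and 0 below. Those within the first arm gave 5 of 9 above and 0 below. Under quantile normalization the same 36 doubles of a first-arm and a far change gave 1 below and 0 above, with a median departure of -0.14, whereas doubles within the far arm still gave 16 of 27 above and 0 below. G10T+C15A, whose octamer TTACGTAA is again a palindrome, was the 1 first-and-far double not called, at -0.12 (adjusted p = 0.613, limma). It read -0.07 and -0.32 with CREB1 alone and -2.39 and -2.06 with CREB1 beside GABPα. The other palindromic doubles of these positions, G10A+C15T and G10C+C15G, departed by -1.84 and -1.69, and read -4.84 on average each with CREB1 beside GABPα.

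The outer forward placement lay below the mean of the other 5 for GABPα. Every member was lower here than its mean elsewhere with GABPα alone and with CREB1 (limma), where 43.7% and 48.9% of all variants were. With CREB1 the deposited table called 204 lower and quantile normalization 201. The median changed member was 3.71 below that mean with CREB1, but the brightest probes were near the dimmest other placement. The unmutated probe with CREB1 averaged -0.69 here, -0.55 at inner reverse and 1.24 at outer reverse. C15G averaged -0.93 here and -0.815 at inner reverse. CREB1 alone was higher for 31 and lower for 99, where 61.4% and 16.3% were, and neither the deposited table nor quantile normalization called any. Without the first CREB1 array 3 were higher and 88 lower, and with each sequence's own spread 8 and 75.

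The increase at the unmutated site on adding CREB1 was 0.40 to 0.74 in the other 5 placements, of which only the largest passed the test (adjusted p = 0.0492, limma), and 3.88 here. In the deposited table, not scaled between arrays, those 5 probes were 1.31-fold to 1.73-fold as bright with CREB1 on the first slide. On the second slide they were 0.888-fold to 1.08-fold as bright, so an increase there depends on the scaling. GABPα alone was above background on all 210 changed members in each of those placements. The difference between the placements was 3.28 (SE 0.134, adjusted p = 0.00145, limma), with an adjusted p of 0.321 in the deposited table, where it was 1.69, and it was 1.66 after normexp (adjusted p = 0.00051). It exceeded 0 for 76 members and fell below 0 for none, where 10% and 15.3% of variants did, and with the slide as a block for 49. Most changed members were at background here with and without CREB1, so their addition lay near 0. Its median over changed members was -0.08 here and -0.36 to -0.55 in the other placements. For members at background a placement difference below 0 could therefore hardly appear, and one above 0 is not by itself a gain here. With CREB1, 43 changed members were above background here and 206 to 210 in each other placement. In the deposited table the median changed member kept 19.7% of the unmutated signal with CREB1 here and 50.6% to 57.7% elsewhere.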

How the data were processed

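Spot intensity in the Cy5 channel was read from the authors' scanner output, on a linear scale. Per the file headers, Agilent Feature Extraction 12.0.1.1 had subtracted a background fit, written surrogates for spots without significant signal, and tested spots as well above background at 13 SD. The authors' deposited table is linear intensity too: the median over spots of median intensity minus local background, met within 0.01 for all entries when recomputed. It is neither centred nor turned, and its column medians were 325 and 339 (GABPα alone), 317 and 242 (GABPα with CREB1), and 16932 and 17398 (CREB1 alone). An array had 179966 spots, less controls and outliers (2.26% to 4.55%).

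Log2 processed intensity minus the 75th percentile over 1143 sequences above background on all arrays was averaged per sequence and tested with limma 3.58.1 in R 4.3.3 (Benjamini-Hochberg, threshold 0.05). Log2 of the deposited table used a floor of 1. Effects, placement differences and departures from additivity were taken within an array, so scaling cancels. The addition of CREB1 and differences between arrays with and without it were fitted on the arrays with tagged GABPα. The other fits, departures from additivity included, pooled the spread over the arrays of all groups. Bounds use the lowest signal of custom sequences above background. No exact permutation test was run, since groups of 2 arrays could not reach the threshold. Effects against the unmutated probe share that probe's error (2 residual and 685 prior degrees of freedom in the fit of their difference), so single members' p-values come from a fit without moderation, added after the data were seen. Only the fits of the addition and of effects with CREB1 alone were tried on simulated data. The simulated effects were independent between rows, without the shared error of the unmutated probe.

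The members and lists were chosen with earlier results of these data known. Named were the unmutated probe, single changes, the extreme doubles, mirror doubles, octamers of known bZIP sites and probes with a second GGAA or TTCC. GGAT and its complement were not in that list, nor were all members that spell out a count of calls. Other names are said to be chosen after values were seen. Replicate numbers of GABPα alone and with CREB1 mark a shared slide per the file headers, although their deviations correlated at r = -0.24 over 6889 custom sequences. Alternatives changed the percentile, normalization, background correction, spot summary, dim filter, block and arrays used.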

Additional observations from a re-analysis of the deposited data

Results flagged for a closer look

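The gain of the unmutated site on adding CREB1 was 3.28 (log2) larger at the outer forward placement than the mean over the other 5 placements. It is listed because the same addition differed between placements by a test of the difference itself. The size is not a measured one, since GABPα alone was at background on the outer forward probe. It was 1.66 after normexp, and 1.69 in the deposited table, where it did not pass the test (adjusted p = 0.321, limma).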

How the results depend on the processing

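No difference at the unmutated probe changed sign, but the prevailing direction of calls turned in 3 counts: the addition under the percentile over all spots, effects with GABPα alone under quantile normalization and normexp, and departures from additivity under quantile normalization. All values are counts of members called unless a log2 value is named, and causes were not tested except where the construction shows them. Leaving out single arrays gave 0 to 42 calls of the CREB1 addition, 41 to 95 of its placement difference, 3 to 19 of effects with GABPα alone, 2 to 12 above the core-broken reference with GABPα alone, and 3.72 to 4.03 (log2) for the addition at the unmutated probe, which lost its call without either array of GABPα alone.

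The percentile over all spots gave 171 calls of the addition (46 higher, 125 lower). Quantile normalization gave 31 for the addition and 102 for effects with GABPα alone (38 higher, 64 lower, against 8 and 0). Against the reference it gave 112 with GABPα alone (105 above, 7 below) and 146 with CREB1, all above. It gave 0 for the placement level of CREB1 alone and 78 departures from additivity (76 above, 2 below, against 31 and 118). Normexp gave 41 effects with GABPα alone (14 higher, 27 lower), 210 above the reference in both groups, and log2 values of 2.16 and 1.66 for the addition at the unmutated probe and its placement difference. The deposited table gave 0 for the addition, the difference of effects, the placement level of CREB1 alone and the placement difference of the addition, 210 above the reference in both groups, and log2 values of 2.23 (adjusted p = 0.543, limma) and 1.69 (adjusted p = 0.321) for the addition at the unmutated probe and its placement difference. Medians over spots gave 2 above the reference with GABPα alone.

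Leaving out dim sequences tests fewer members. It gave 1, 31 and 120 effects for GABPα alone, with CREB1 and for CREB1 alone, 32 differences of effects, 1 above the reference with GABPα alone and 43 with CREB1, placement levels of 1, 44 and 47, 43 placement differences and 79 departures. With the replicate block, which pairs arrays by slide, the addition gave 35 calls and its placement difference 49. The numbers paired crosswise gave 46, 155 and, for the difference of effects, 199. Without moderation the addition gave 0 (78 at an unadjusted p under 0.05), the reference with GABPα alone 2, the placement level of CREB1 alone 83, the placement difference 23, and departures 96, and the addition at the unmutated probe kept its 3.88 with an adjusted p of 0.0631. The crossed pairing and the fit without moderation were chosen after the data were seen. Since GABPα alone was below background on all members but 1, the size of most gains is a bound.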
